A study of Homo sapiens with 2 samples.

Results

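The ZNF genes are the human genes whose symbol is ZNF followed by a number, most of which encode DNA-binding zinc finger proteins. Taken here were those whose brightest probe set, the one with the highest mean over both arrays, had a signal of 100 or more in either array, with ZNF593 left out by the rule. The genes were therefore chosen by the signals of both arrays and not by their ratio. Of 466 ZNF genes that a probe set names alone, 101 met the rule, out of 19775 genes named in this way on the array. Of the other ZNF genes, 80 lay between 50 and 100 in the brighter array and 284 were under 50 in both. Thus 21.9% of ZNF genes, ZNF593 included, reached 100, against 37.6% of all genes.

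HT-29, an established human colorectal adenocarcinoma line, was transfected with a pool of siRNAs against MYC or with a non-targeting pool, at 20 nM for 24 h, and was used after 48 h. The sample labels give None as the treatment of the control array, whereas the protocol gives a non-targeting pool, and it is called control siRNA here. There was 1 array per condition, so differences cannot be checked against replicates and no test was made. Signals are MAS5 values on a linear scale, scaled by the authors to a mean target level of 100 on each array, and a log2 ratio is that of MYC siRNA to control siRNA after signals under 50 were set to 50.

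Zinc finger proteins of the classical type fold short peptide loops around a zinc ion held by cysteine and histidine residues, and arrays of such fingers read DNA sequence. Many ZNF proteins also carry a KRAB domain, which binds the scaffold TRIM28 and so brings histone methyltransferases and HP1 proteins to DNA. A large share of the KRAB family lies in gene clusters of chromosome 19, and many of its members silence transposable elements. Not every gene with a ZNF name is such a factor, since the name was also given to LIM domain, RNA-binding and ribosome-associated proteins.

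The targeted gene itself had a signal of 1640 with MYC siRNA and 1963 with control siRNA (log2 ratio -0.26) by its only probe set. This is a value of mRNA, whereas the study reported the knockdown by immunoblots of MYC protein. It also reported lower expression of genes from curated MYC target sets. Of 8 colorectal epithelial markers, 7 were at 100 or more on both arrays, and CDX2, a defining intestinal factor, was under 2 on both. The sum over these 8 markers was 36569 with MYC siRNA and 32612 with control siRNA, with LGALS4 (3056 and 1771, in the same order) and KRT20 (7034 and 4973) higher and EPCAM (4512 and 5156) and KRT18 (9158 and 9363) lower. None of 4 fibroblast, 3 endothelial or 3 measured leukocyte markers reached 100, and their summed signals were 93.9, 18.1 and 36.6 with MYC siRNA and 115.1, 28.6 and 34.5 with control siRNA. The part of the marker levels in the values that follow was not tested.

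MYC and its partner MAX bind the DNA word CACGTG, the canonical E-box, so the start-site windows of the ZNF genes were searched for it. The word reads the same on both strands. RefSeq windows of GRCh38.p14, each running from 250 bases before a start site to 50 after it, were held for 87 of the 101 genes, in 121 windows. The word stood in 8 of these windows (6.61%), each of a different gene, compared with 10.3% of 8987 windows of the other genes at 100 or more and 7.26% of all 35116 windows. Counted by gene, it stood in 9.20% of ZNF genes with a window, compared with 13.9% of the other genes at 100 or more and 8.77% of all genes. The 5 genes that hold it within the 100 bases before the start site are shown from 5′ to 3′ with the word in capitals, followed by ZNF185, which had the highest ratio of all and holds the word in none of its 4 windows. The stretches are chr2:27582942-27583041 for ZNF512, chr18:58863991-58864090 for ZNF532, chr19:57849759-57849858 for ZNF587, chr19:57830199-57830298 for ZNF587B, chr7:149262096-149262195 for ZNF783 and chrX:152914332-152914431 for ZNF185, all on the plus strand.
ZNF512: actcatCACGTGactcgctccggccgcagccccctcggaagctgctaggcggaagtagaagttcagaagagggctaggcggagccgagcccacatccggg
ZNF532: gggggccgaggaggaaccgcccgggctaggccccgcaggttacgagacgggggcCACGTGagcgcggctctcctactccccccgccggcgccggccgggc
ZNF587: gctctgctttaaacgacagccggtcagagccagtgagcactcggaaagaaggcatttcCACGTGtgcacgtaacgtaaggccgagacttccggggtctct
ZNF587B: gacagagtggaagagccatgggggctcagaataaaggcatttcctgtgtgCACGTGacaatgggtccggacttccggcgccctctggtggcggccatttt
ZNF783: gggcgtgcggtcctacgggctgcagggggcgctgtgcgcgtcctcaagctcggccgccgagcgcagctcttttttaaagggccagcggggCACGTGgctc
ZNF185: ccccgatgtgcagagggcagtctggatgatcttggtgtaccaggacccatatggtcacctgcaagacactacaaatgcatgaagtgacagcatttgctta

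The 8 genes with the word had a median log2 ratio of -0.20, with 6 lower and 2 higher with MYC siRNA (all genes at 100 or more, 48.8% lower and 51.2% higher). The 79 genes with a window but without the word had a median of 0.03, with 42 higher and 37 lower. Of the lower genes with the word, ZNF398 had a log2 ratio of -0.04, and a dimmer probe set of ZNF512 was higher (0.11). Whether the word plays a part was not tested. None of the 8 was 1.5-fold higher or lower. The lowest was ZNF202, a SCAN and KRAB domain repressor with the word across its start site, at 88.2 with MYC siRNA and 124.9 with control siRNA (log2 ratio -0.50). As ZNF202 reached 100 only with control siRNA, its direction was fixed by the rule. The highest was ZNF587, at 326 with MYC siRNA and 271.2 with control siRNA (log2 ratio 0.27). Its neighbour ZNF587B, whose window also holds the word, had 191.7 with MYC siRNA and 237.4 with control siRNA (log2 ratio -0.31). These neighbours are related copies, and both were read by probe sets of the type that can bind several transcripts. A dimmer probe set of ZNF587 went the other way, with 53.6 with MYC siRNA and 77.0 with control siRNA, so the opposite directions of this pair are uncertain.

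The log2 ratios of ZNF genes as a whole centred near no change. Both arrays were scaled to the same mean of 100, so a change shared by most genes would not be seen. With MYC siRNA, 53 of the 101 were higher and 48 lower (all genes at 100 or more, 51.2% higher and 48.8% lower), and the median log2 ratio was 0.03, compared with 0.01 for the other 7335 genes at 100 or more. The middle 50% of ZNF genes lay between -0.23 and 0.30, and that of the other genes between -0.24 and 0.30. Within 1.2-fold of equality were 52 ZNF genes (51.5%) and 49.4% of the other genes. At 2-fold or more, 2 ZNF genes were higher, ZNF185 and ZNF641, and none was lower (background 3.27% and 0.834%). At 1.5-fold or more, 9 were higher and 3 lower (background 10.3% and 6.48%). Since the signal on these same arrays chose the genes, these counts are a description, and nothing is read from the shares. In particular, 14 genes reached 100 only with MYC siRNA and 12 only with control siRNA, so their direction was fixed by the rule. Of the 75 at 100 or more on both arrays, 39 were higher and 36 lower, with a median of 0.02, compared with -0.01 for the 6669 other genes of that kind. Of the same 75, 3 (ZNF185, ZNF827 and ZNF703) were higher by 1.5-fold or more and none was lower, compared with 7.18% higher and 6.01% lower among the 6669. The other 6 of the 9 higher genes and all 3 of the lower ones reached 100 only on the array where they are brighter.

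**Figure D1:**
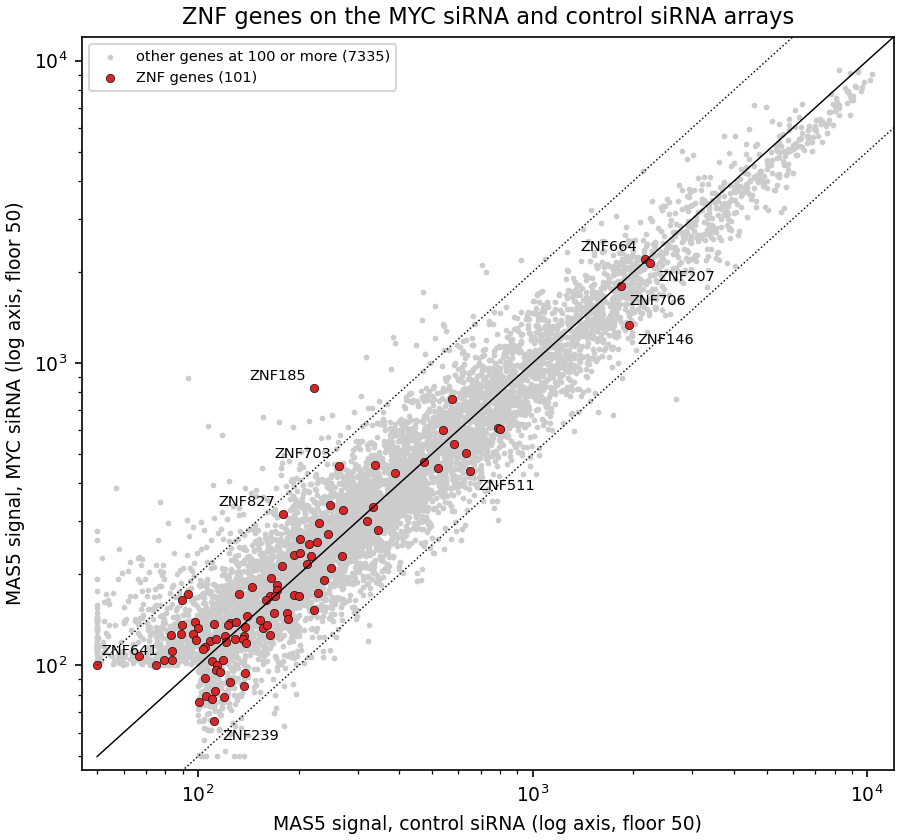
MAS5 signals of the 101 ZNF genes (red) and of the 7335 other genes at 100 or more in either array (grey), with MYC siRNA on the y axis and control siRNA on the x axis, both logarithmic and starting from the floor of 50. Signals are equal along the solid line and differ 2-fold along the dotted lines; ZNF185 lies far above the upper dotted line at 826 and 223, ZNF641 lies on it, and the other ZNF genes lie between the lines.

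The genes at the edge of the rule were, just inside it, ZNF641 with 100.3 on the MYC siRNA array, ZNF184 with 100.4 on the MYC siRNA array and ZNF408 with 100.5 on the control siRNA array. Just outside it were ZNF140 (99.4 with MYC siRNA and 61.4 with control siRNA), ZNF443 (98.9 and 87.8, in the same order) and ZNF57 (80.0 and 96.8). ZNF593, a homologue of a yeast ribosome assembly factor, was left out by name. It had 502.8 with MYC siRNA and 821 with control siRNA (1.63-fold lower), so with it 4 genes would have been lower by 1.5-fold or more.

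As ZNF genes are dim, they were also set beside other genes of equal signal. The brighter array had a median of 169.1 for ZNF genes and 373.8 for the others. In the band from 100 to 200 in the brighter array, the median log2 ratio was 0.04 for 62 ZNF genes and 0.10 for 1861 other genes, and 51.6% of the ZNF genes and 59.8% of the others were higher with MYC siRNA. From 200 to 400 the medians were 0.12 for 22 ZNF genes and 0.04 for 1979 others. At 400 or more they were -0.03 for 17 ZNF genes and -0.05 for 3495 others. The log2 ratios of different probe sets for 1 gene had an SD of 0.24, 0.22 and 0.18 in the 3 bands. This SD is the only measure of noise for single genes in these data, and it does not cover differences between cultures.

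**Figure D2:**
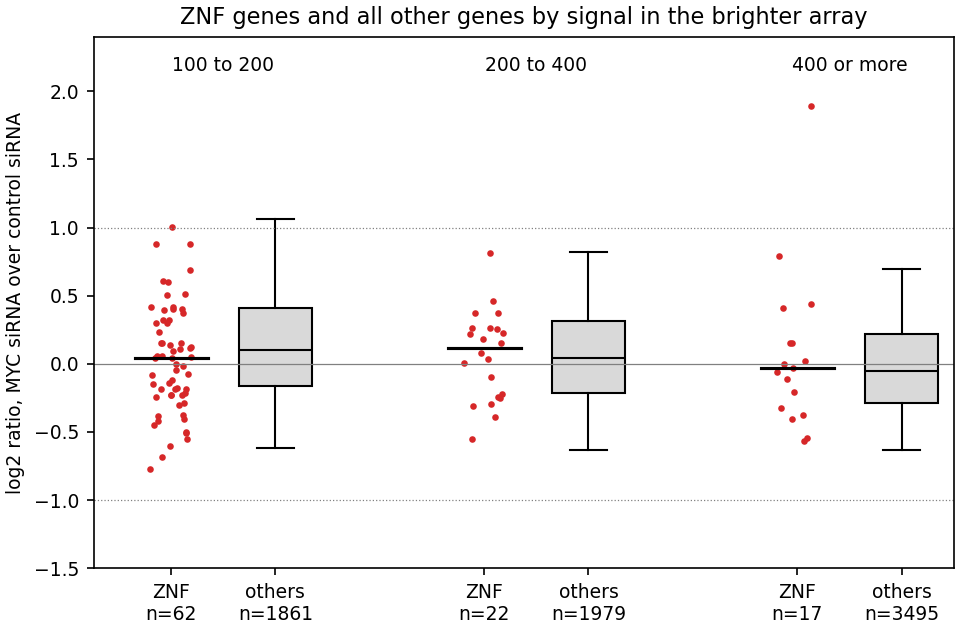
Log2 ratio (y axis, MYC siRNA to control siRNA) of each ZNF gene (red points, with the median as a black bar) and of all other genes (grey boxes, quartiles and median, with whiskers at the 5th and 95th percentiles) in 3 bands of signal in the brighter array. Dotted lines mark 2-fold; the ZNF medians of 0.04, 0.12 and -0.03 lie inside the grey boxes, and ZNF185 at 1.89 lies alone at the top of the brightest band.

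Among genes higher with MYC siRNA, ZNF185 stood apart. ZNF185 encodes a LIM domain protein of the actin cytoskeleton and is not a classical zinc finger factor. It had a signal of 826 with MYC siRNA and 222.6 with control siRNA, 3.71-fold higher (log2 ratio 1.89), and it was read by 1 probe set. Under the other floors, scalings and probe set rules tried, its log2 ratio lay between 1.88 and 1.91. ZNF641 had 100.3 with MYC siRNA and 48.8 with control siRNA. As the control signal is under 50, the 2.01-fold ratio is a lower bound on the authors' scaling only. Its log2 ratio was 0.99 after median centring, 0.92 after quantile normalization, 0.91 after loess and 0.00 with a floor of 100. The place of ZNF641 on the 2-fold line thus depends on the scaling and on the floor. Its other 3 probe sets were under 50 on both arrays, and averaged over all 4 its log2 ratio was 0.25.

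Below 2-fold, ZNF703 and ZNF827 had the brightest signals among the 10 highest. ZNF703, a corepressor of the NET family and an oncogene of luminal breast cancer, had 456.9 with MYC siRNA and 264.6 with control siRNA (1.73-fold higher). Its relative ZNF503, of the same family, had 77.5 with MYC siRNA and 110.0 with control siRNA (1.42-fold lower). ZNF503 reached 100 only with control siRNA, so its direction was fixed by the rule. Its log2 ratio was -0.14 with a floor of 100 and -0.13 over all its probe sets, the others of which were under 50 on both arrays. ZNF827, which recruits the NuRD complex to telomeres, had 316.2 with MYC siRNA and 179.7 with control siRNA (1.76-fold higher), and 2 dimmer probe sets of it were also higher, with log2 ratios of 0.70 and 0.36. Averaged over all their probe sets, some of them under 50 on both arrays, ZNF703 and ZNF827 had log2 ratios of 0.39 and 0.38, under 1.5-fold. ZNF217, a transcriptional regulator amplified in breast and other carcinomas, had 761 with MYC siRNA and 574.4 with control siRNA (1.33-fold higher).

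The remaining genes of the 10 highest were dim. ZNF226, of a chromosome 19 cluster, had 171.9 with MYC siRNA and 93.5 with control siRNA (1.84-fold higher), and a dimmer probe set had 75.4 with MYC siRNA and 42.8 with control siRNA. Its log2 ratio was 0.37, under 1.5-fold, over all its probe sets, where those under 50 on both arrays count as no change. Without probe sets that can bind several transcripts, only 1 is left, with 5.9 with MYC siRNA and 3.9 with control siRNA. The 0.00 of ZNF226 there is set by the floor and is not a measured ratio. ZNF252P, a transcribed pseudogene, had 164.8 with MYC siRNA and 89.7 with control siRNA (1.84-fold higher), but a second probe set only 80.3 with MYC siRNA and 67.6 with control siRNA. The mean log2 ratio over its probe sets was 0.28, with the others, under 50 on both arrays, counted as no change. ZNF189 was 1.61-fold, ZNF600 1.52-fold and ZNF45 1.51-fold higher, each with a control signal under 100, and ZNF45 had a log2 ratio of 0.43, under 1.5-fold, over its 2 probe sets. ZNF652, a repressor, was 1.42-fold higher by its brightest probe set, while 2 others were lower, with log2 ratios of -0.08 and -0.36, so its direction is uncertain.

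Among genes lower with MYC siRNA, 3 passed 1.5-fold by their brightest probe sets, and all 3 were dim. ZNF239, also known as MOK2, which binds DNA and RNA, had 65.4 with MYC siRNA and 111.7 with control siRNA (1.71-fold lower). ZNF215 had 85.5 with MYC siRNA and 137.5 with control siRNA (1.61-fold lower), and ZNF586 78.6 with MYC siRNA and 119.8 with control siRNA (1.52-fold lower). None of the 3 had another probe set reaching 50, and with such probe sets averaged in, ZNF215 and ZNF586 had log2 ratios of -0.34 and -0.30.

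Brighter genes on this side were lower by smaller amounts by their brightest probe sets. ZNF146, also known as OZF, a protein made almost only of zinc fingers, had 1336 with MYC siRNA and 1948 with control siRNA (1.46-fold lower, log2 ratio -0.54). Its second probe set was 1.56-fold lower, at 294.6 with MYC siRNA and 458.2 with control siRNA (log2 ratio -0.64). The mean log2 ratio over both probe sets of ZNF146 was -0.59, which passes 1.5-fold. A dimmer probe set of ZNF22 was also 1.56-fold lower (142.1 with MYC siRNA and 222.0 with control siRNA). The brightest probe set of ZNF22 was 1.23-fold lower. ZNF511 had 440 with MYC siRNA and 651.7 with control siRNA (1.48-fold lower) by its only probe set. ZNF770, among the 5 brightest by mean signal over both arrays, was 1.32-fold lower at 603.3 with MYC siRNA and 797.3 with control siRNA. Of the other genes among the 10 lowest, ZNF721 and ZNF576 were each 1.46-fold lower and ZNF614 1.36-fold lower, and a second probe set of ZNF721 and of ZNF576 was lower as well, with log2 ratios of -0.31 and -0.30.

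**Figure D3:**
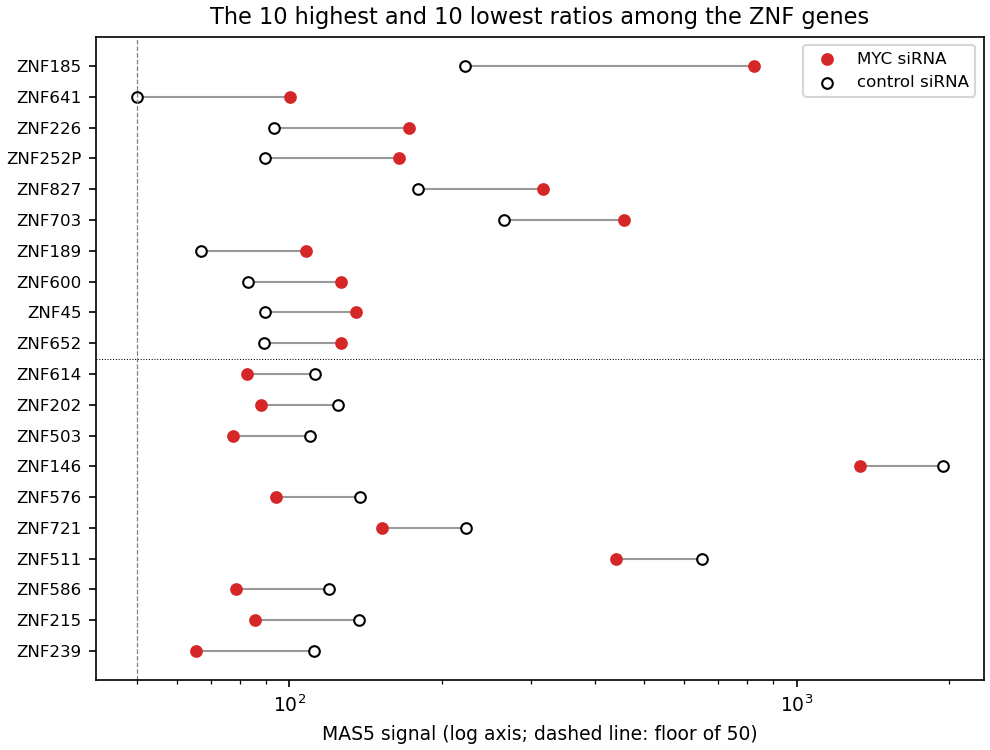
MAS5 signal (x axis, log scale) with MYC siRNA (red) and control siRNA (open) of the 10 ZNF genes with the highest ratio (upper part) and the 10 with the lowest (lower part), each on its own row, with signals under 50 drawn at 50 (dashed line). ZNF185 has the widest gap, 826 against 223, and most of the others lie between 50 and 200, with ZNF146 (1336 and 1948) the brightest.

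The other 3 of the 4 ZNF genes with a signal over 1000 had log2 ratios close to 0 by their brightest probe sets. ZNF207, also known as BuGZ, which loads the checkpoint protein BUB3 onto kinetochores, had 2149 with MYC siRNA and 2247 with control siRNA. ZNF664 had 2204 with MYC siRNA and 2172 with control siRNA, and ZNF706 had 1794 with MYC siRNA and 1834 with control siRNA. The log2 ratios of ZNF207, ZNF664 and ZNF706, which were -0.06, 0.02 and -0.03, lay within the SD of 0.18 between probe sets. The sign of ZNF207 and ZNF706 turned positive, with log2 ratios of up to 0.05 and 0.07, under 2 of 8 alternatives. All 5 probe sets of ZNF207 that reach 50 were lower, with log2 ratios from -0.53 to -0.06, and so was the dimmer second probe set of ZNF706 (-0.27).

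ZNF143, an activator of snRNA genes and of many other promoters, had 256.8 with MYC siRNA and 226.4 with control siRNA (log2 ratio 0.18). ZNF148 and ZNF281, related proteins that bind GC-rich promoter elements, had log2 ratios of 0.10 and -0.25, and 1 of the 6 probe sets of ZNF148 that reach 50 went the other way. ZNF24, a SCAN domain factor, had 232.4 with MYC siRNA and 193.8 with control siRNA (log2 ratio 0.26). ZNF395 had 136.6 with MYC siRNA and 122.9 with control siRNA (log2 ratio 0.15).

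Of genes on the list of known roles that act with chromatin enzymes, ZNF274, which brings the methyltransferase SETDB1 to ZNF genes, had 104.4 with MYC siRNA and 83.8 with control siRNA (log2 ratio 0.32). ZNF274 reached 100 only with MYC siRNA, so its direction was fixed by the rule. Its log2 ratio was 0.06 with a floor of 100. Without probe sets that can bind several transcripts, only 1 is left, with 22.1 on both arrays. The 0.00 of ZNF274 there is set by the floor and is not a measured ratio. ZNF592, a partner of ZMYND8, had 137.7 with MYC siRNA and 111.8 with control siRNA (log2 ratio 0.30). ZNF644, a partner of the methyltransferases G9a and GLP, had 601 with MYC siRNA and 540.7 with control siRNA (log2 ratio 0.15), and its second probe set had a log2 ratio of -0.03. ZNF451, a SUMO ligase, had a log2 ratio of 0.22 by its brightest probe set and -0.57 by another of nearly the same control signal, so no direction can be given.

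ZNF622, a homologue of a yeast factor that matures the large ribosomal subunit, had 173.7 with MYC siRNA and 228.1 with control siRNA (1.31-fold lower), and its log2 ratio lay between -0.44 and -0.39 under the alternatives. ZNF330, a nucleolar protein, had 450.8 with MYC siRNA and 520 with control siRNA (log2 ratio -0.21). ZNF326, of a complex that links splicing to elongation, had 538.3 with MYC siRNA and 581.6 with control siRNA (log2 ratio -0.11). ZNF638, which acts with the HUSH complex on retroviral DNA and also binds RNA, had 471.8 with MYC siRNA and 472.2 with control siRNA, while another bright probe set had 452.8 with MYC siRNA and 394.3 with control siRNA. The remaining genes of the list of known roles had log2 ratios of 0.15 for ZNF277 and 0.05 for ZNF160.

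ZNF genes lay on 19 chromosomes, with 31 on chromosome 19 and 15 on chromosome 7. On chromosome 19, 19 were higher and 12 lower with MYC siRNA, and the median log2 ratio was 0.15, compared with 0.00 for the 70 on other chromosomes, where 34 were higher and 36 lower. Of the 366 other genes of chromosome 19, 49.5% were higher, and their median was 0.00. Of the ZNF genes on chromosome 19, ZNF226, ZNF600, ZNF45, ZNF791, ZNF227, ZNF580, ZNF274 and ZNF428 reached 100 only with MYC siRNA. ZNF551, ZNF574, ZNF787, ZNF614, ZNF576 and ZNF586 reached it only with control siRNA. The directions of all these genes were fixed by the rule, so little can be read from the counts. With 1 array per condition the difference between chromosomes could not be tested. In the dimmest band the medians were 0.06 for 23 genes of chromosome 19 and -0.02 for 39 on other chromosomes, from 200 to 400 they were 0.27 for 5 and 0.03 for 17, and at 400 or more -0.32 for 3 and -0.02 for 14. With a signal minimum of 50, 41 of 59 ZNF genes of chromosome 19 were higher, and the median stayed at 0.15. At that minimum the median was 0.03 for all 8917 genes and 0.00 for ZNF genes on other chromosomes. The share of all genes that were higher was not counted there, so nothing is read from the 41. A gene that passes this minimum on 1 array only also has its direction fixed by it. When all probe sets of a gene were averaged, the chromosome 19 median was 0.014. Probe sets under 50 on both arrays count as no change in that mean and draw it towards no change. After quantile normalization the chromosome 19 median was 0.07 and 16 of the 31 were higher, so the size of the difference depends on the processing.

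Neighbours on chromosome 19 did not share a direction throughout. Runs of ZNF genes with starts no more than 1 Mb apart were followed. In the run from ZNF576 to ZNF227, 4 of 5 were higher, with ZNF428, ZNF45, ZNF226 and ZNF227 at log2 ratios of 0.30, 0.60, 0.88 and 0.42 and ZNF576 at -0.55. All 5 reached 100 only on the array where they are brighter, so their directions were fixed by the rule. In the run from ZNF614 to ZNF765, 5 of 6 were higher, with ZNF766, ZNF600, ZNF468, ZNF160 and ZNF765 at 0.32, 0.61, 0.46, 0.05 and 0.44 and ZNF614 at -0.45. In the run from ZNF551 to ZNF544, 5 of 8 were higher, and the log2 ratios ran from -0.61 for ZNF586 to 0.37 for ZNF552. The adjacent genes ZNF580 and ZNF581 had 0.40 and -0.19. Of these later genes, ZNF600, ZNF614, ZNF551, ZNF586, ZNF274 and ZNF580 also reached 100 on 1 array only. In the largest run of chromosome 7, from ZNF786 to ZNF746, 3 of 7 were higher, from -0.24 for ZNF777 to 0.37 for ZNF212. These runs and the members named from them were chosen after their values were seen.

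**Figure D4:**
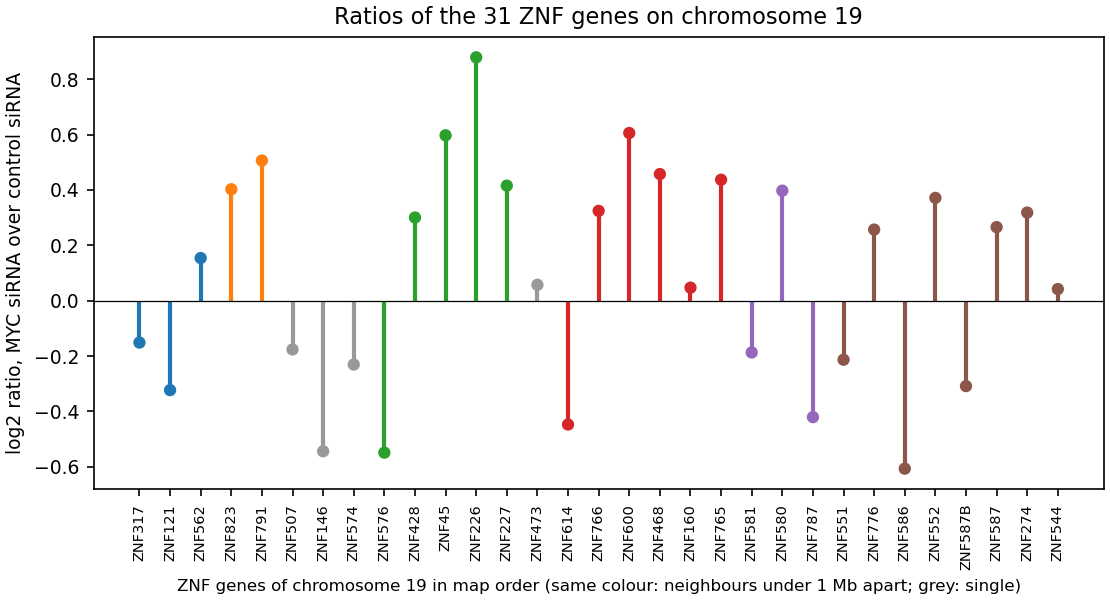
Log2 ratio (y axis, MYC siRNA to control siRNA) of the 31 ZNF genes of chromosome 19 in map order (x axis), with the same colour for runs of neighbours and grey for genes on their own. The runs holding ZNF226 (green) and ZNF600 (red) lie mostly above 0, each with 1 gene well below it, and the last run (brown) goes both ways. Every gene of the green run reached 100 on 1 array only, so its direction was fixed by the rule.

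Probe design limits these values. The brightest probe set was of the type that can bind several transcripts of related sequence (suffix x) for 11 ZNF genes and of the type shared by several transcripts (suffix s) for 20, and the medians of these groups were 0.05 and 0.04, compared with 0.01 for the 70 others. Near-identical zinc finger genes can share such probes, so values of ZNF587, ZNF587B, ZNF552, ZNF600, ZNF721, ZNF138, ZNF680 and ZNF160 are uncertain. Of 40 ZNF genes with at least 2 probe sets reaching 50, the probe sets of 9 went both ways. These were ZNF148, ZNF451, ZNF473, ZNF512, ZNF587, ZNF609, ZNF638, ZNF644 and ZNF652.

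The cofactors through which KRAB domains act were also followed. Of 29 genes of TRIM28, its methyltransferases, HP1, NuRD, HUSH and DNA methylation, 26 reached 100. Of these, 18 (69.2%) were lower and 8 higher (background 48.8% and 51.2%), with a median log2 ratio of -0.11, which was -0.05 without probe sets that can bind several transcripts. By 1.5-fold or more, 2 (7.69%) were lower and none was higher (background 6.48% and 10.3%), and MTA2, 1 of the 2, reached 100 only with control siRNA. Of the 26, 17 had 400 or more in the brighter array, where the median of all genes other than ZNF genes was -0.05. The lowest were the NuRD subunit MTA2 (66.6 with MYC siRNA and 104.0 with control siRNA), the maintenance DNA methyltransferase DNMT1 (527.7 and 792.3, in the same order) and the HUSH partner MORC2 (333.5 and 485.5). The highest were the HUSH subunit TASOR (599.5 with MYC siRNA and 424.7 with control siRNA), the NuRD remodeller CHD3 (100.5 and 74.9) and ATRX, a remodeller of heterochromatin (403.9 and 336). CHD3 reached 100 only with MYC siRNA, so its direction was fixed by the rule, as was that of MTA2. TRIM28 itself had 1417 with MYC siRNA and 1606 with control siRNA (1.13-fold lower), and SETDB1 was under 100 on both arrays.

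The 22 genes named ZFP, ZSCAN, ZKSCAN or ZBTB that reached 100 were taken by name only as related zinc finger genes. Of these, 11 were higher and 11 lower, with a median log2 ratio of 0.01, and by 1.5-fold or more 6 (27.3%) were higher and 1 (4.55%) lower (background 10.3% and 6.48%). How many of the 22 reached 100 on 1 array only was not counted, so nothing is read from these shares.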

How the data were processed

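RNA of HT-29 cells was hybridised to GeneChip Human Genome U133 Plus 2.0 arrays, 1 with MYC siRNA and 1 with control siRNA. For each of 54675 probe sets the authors deposited a MAS5 signal, a linear intensity that affy 1.40.0 computed and scaled to a target of 100. Trimmed by 2% at either end, both arrays had a mean of 100, and 16571 probe sets with MYC siRNA and 16074 with control siRNA reached 50. With 1 array per condition, precision is limited by their number.

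In the platform annotation, 41097 probe sets name 1 gene and 1801 name several. A gene took its probe set with the highest mean signal. The floor of 50 and the ratio of 2 are those of the study's methods. Chromosomes and map order, for all 101 genes, and start-site windows, for 87, came from RefSeq (GRCh38.p14). The array has no genome build, so the only coordinates given are those of printed start-site stretches in GRCh38.p14. Proteins were not used here, so the planned split by KRAB motif was not made.

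Named are the 10 highest and 10 lowest ZNF genes, the 5 with the highest mean signal, those on a list of known roles, the 3 genes on either side of the signal threshold, and the 3 highest and lowest cofactors. Genes and lists were chosen with earlier results of these data known; others were named after their values were seen. A median counted as moved at a shift of 0.1. Alternatives were floors of 25, 100 or none with 1 added, median centring, quantile normalization, loess (span 0.3), other probe set rules, signal minimums of 200 and 50 and updated symbols. The calculations were tested on simulated data, with changes set only in bright genes and with less noise than that between probe sets. Changes of dim genes were therefore not covered by that test. Tools were pandas 2.3.3 and numpy 2.4.6 in Python 3.11.15, with statsmodels 0.14.6 for loess and matplotlib 3.10.9 for figures.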

Additional observations from a re-analysis of the deposited data

How the results depend on the processing

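The number of ZNF genes higher by 2-fold or more was 1 in place of 2 with a floor of 100, median centring, quantile normalization, loess, the mean over probe sets and a signal minimum of 200, and ZNF185 was the gene left. None was lower by 2-fold in any of the 11 alternatives. At 1.5-fold or more, 5, 3 and 3 were higher in place of 9 with a floor of 100, the mean over probe sets and a minimum of 200. Probe sets under 50 on both arrays count as no change in that mean. In place of 3, 0 were lower with a floor of 100 and with a minimum of 200, and 7 after quantile normalization; the cause was not tested. The median log2 ratio of ZNF genes lay between -0.01 (quantile normalization) and 0.04. That of chromosome 19 was 0.014 with the mean over probe sets and 0.26 with a minimum of 200, where 8 genes were left. The cofactor and related zinc finger medians shifted by less than 0.1 under all of them. Of 42 named ZNF genes, 305 of 331 values under the alternatives shifted by less than the SD between probe sets. Many of these could not shift by that much. Of the named genes, a floor of 25 changed only ZNF641, and median centring moved every log2 ratio by the same 0.01. A floor of 100 cannot change genes at 100 or more on both arrays, nor can averaging change those with 1 probe set. The 26 values that shifted by more lay mostly on the genes named as highest or lowest. The total of 305 therefore does not show that those genes are stable. No paired analysis was possible because there was 1 array per condition.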
